A study of Mus musculus with 42 samples.

Results

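Hsf1, Hsf2, Nfe2l1, Nfe2l2, Keap1, Bach1 and Mtf1 encode the transcription factors that sense proteotoxic, oxidative and metal stress in mouse cells, with the adaptor protein that holds the main oxidative stress factor in check. They were taken by gene symbol, 7 of the 12364 genes in the RNA-seq tables and 7 of the 14586 genes with a polyadenylation site (PAS) in the 3′READS tables. 3′READS sequences the last bases of a transcript before its poly(A) tail, so that each read marks the PAS at which the transcript ends. A PAS was given to a gene when it lay inside the gene or up to 4000 nt downstream on its strand, and not past the start of the next gene.

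All samples came from 2 established mouse cell lines. NIH3T3 is an embryonic fibroblast line, and C2C12 is a myoblast line studied as proliferating myoblasts (MB) or after differentiation into myotubes (MT). NT cells received no arsenite, AS cells were harvested after 1 h in 250 µM sodium arsenite, and RC4, RC8, RC12 and RC24 cells spent a further 4, 8, 12 or 24 h in normal medium. Total RNA of NIH3T3 cells was studied by RNA-seq (2 NT libraries, taken at 0 and 4 h, and 1 each of AS and RC4) and by 3′READS (replicates 1, 2 and 4 of NT and AS, with 1 library of each recovery time, all from replicate 4, the time course). Further 3′READS libraries covered newly made RNA labelled with 4-thiouridine (4sU) and the unlabelled flow-through (Ft) of the same NIH3T3 cells, which in every group, NT included, had received 50 µM 4sU for the last 1 h (2 NT, taken at 0 and 4 h, 1 AS and 1 RC4 of each fraction). Cytoplasmic input and RNA bound to the protein TIA1 came from NT and AS NIH3T3 cells (2 each), cytoplasmic RNA from MB and MT (2 NT, taken at 0 and 4 h, 1 AS and 1 RC4 of each), and total RNA from NT MB and MT (2 each). The study calls its total RNA, TIA1 and MT and MB replicates biological. In RNA-seq, the fractions and C2C12 cytoplasmic RNA the spread is that of the NT libraries of 0 and 4 h. The study lists these as replicates 1 and 2, but their labels share 1 set number and do not say that they were separate cultures. There p-values measure the spread between these libraries, which may be technical and includes any effect of the 4 h between them. Where a state had 1 library, it was assumed to vary like the NT libraries.

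HSF1 is the master activator of heat shock genes: unfolded proteins draw chaperones away from it, and it then forms trimers that bind heat shock elements. HSF2 is its relative, with binding sites in common. NRF2 (Nfe2l2) is bound by KEAP1, which hands it to a CUL3 ubiquitin ligase for degradation, and electrophiles and arsenite modify cysteines of KEAP1 so that NRF2 escapes and binds antioxidant response elements with small MAF partners. BACH1 is a haem-sensing repressor of the same elements and holds Hmox1 silent. NRF1 (Nfe2l1), anchored in the endoplasmic reticulum, activates proteasome genes when proteasome activity is low, and MTF1 is the zinc-responsive activator of metallothioneins.

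RNA-seq libraries held 17137579 to 25194062 reads in coding sequences, and 3′READS libraries 1048335 to 6974664 reads at PASs. All 7 fibroblast markers were present in NIH3T3, of which C2C12 also had 6, and the epithelial markers Epcam, Cdh1 and Krt8 were not listed in any 3′READS library. By 3′READS the 8 myotube markers summed to 11100 to 22600 RPM in MT, 76.7 to 259.7 in MB and 0 to 10.2 in NIH3T3. RPM are the reads of a gene per library total, on the usual scale of counts per 1e6. In RNA-seq of NIH3T3 these markers summed to 174.1 and 170.5 RPM in NT, 182.6 in AS and 72.7 in RC4. Acta1 made up most of that, at 170.2 and 166.7 in NT, 177.4 in AS and 69.4 in RC4. Levels below are normalised RPM, scaled within each experiment so that the median gene did not change. Scaling by the library total alone moved the median gene by −0.80 (log2) at RC4 in RNA-seq and turned the share of called genes that were higher from 53.9% to 15.1%. The corresponding shifts at RC4 were −0.21 in NIH3T3 total RNA by 3′READS (66.4% to 38.5% higher), −0.32 in 4sU RNA (54.0% to 30.1%), −0.45 in Ft RNA (59.7% to 27.1%), −0.35 in MB (69.6% to 36.8%) and −0.22 in MT (79.4% to 71.3%). They were −0.18 in 4sU RNA at AS (62.8% to 35.0%), −0.26 for Ft against 4sU (45.2% to 34.0%), and 0.23 and 0.24 for TIA1 against input in NT and AS cells (50.6% to 60.2% and 21.5% to 45.1%). Every change is therefore relative to the median gene.

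The ends of the 7 transcripts are shown because the 3′READS values count reads at them. Each line below is the transcribed strand, 5′ to 3′, of the 30 nt that end at the PAS, in mm9 coordinates, and capitals mark the polyadenylation signal, the hexamer that directs cleavage.
Hsf1 proximal PAS, 3′UTR in exon 12, chr15:76331324-76331353, plus strand: ttgttCATAAAattgtattttggattttta
Hsf1 distal PAS, just past the annotated end, chr15:76331375-76331404, plus strand: ttcacaAATAAAtatatatatacatacata
Hsf2 proximal PAS, 3′UTR in exon 13, chr10:57232646-57232675, plus strand: tagtaaAATAAAtatgatggatgtcgagta
Hsf2 distal PAS, just past the annotated end, chr10:57232917-57232946, plus strand: tatgtttctAATAAAgaaccaagagaaaaa
Nfe2l1 proximal PAS, 3′UTR in exon 5, chr11:96679310-96679339, minus strand: gcCATAAAgactccgtgttaactgtgtaaa
Nfe2l1 distal PAS, 3′UTR in exon 5, chr11:96678732-96678761, minus strand: aaatcaAATAAAatggatgattcagcttaa
Nfe2l2 proximal PAS, 3′UTR in exon 5, chr2:75513848-75513877, minus strand: tttacaaagcATTAAAgtctcaatgttgaa
Nfe2l2 distal PAS, 3′UTR in exon 5, chr2:75513573-75513602, minus strand: agcactAATAAAagaatatcatgacttaaa
Keap1 proximal PAS, 3′UTR in exon 6, chr9:21034508-21034537, minus strand: cgcagatcctgatggggctggtatctgaaa
Keap1 distal PAS, 3′UTR in exon 6, chr9:21034175-21034204, minus strand: agcaggaaAATAAAggtttctgggacattg
Bach1 distal PAS, 3′UTR in exon 5, chr16:87733562-87733591, plus strand: AATAAAgttcctaacatggctttcagtcga
Mtf1 proximal PAS, 3′UTR in exon 11, chr4:124522109-124522138, plus strand: tacgtgtatgCATAAAagttctaaatgaaa
Mtf1 distal PAS, 3′UTR in exon 11, chr4:124526601-124526630, plus strand: tcttaATTAAAtgcttatttaaatctggta

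Every distal PAS carried the canonical AATAAA except that of Mtf1, which had the common variant ATTAAA. The proximal PASs of Hsf1, Nfe2l1 and Mtf1 had the weaker CATAAA, and the Keap1 site has no capitals because its nearest hexamer, AATACA, began 36 nt before the PAS, outside the printed window. The distal site took 60.9% of the reads of Hsf1 over all 38 3′READS libraries, 60.3% of Nfe2l1, 71.4% of Nfe2l2, 69.5% of Keap1 and 53.6% of Bach1. It took the smaller share in Hsf2 (35.9%, against 63.7% at the proximal site) and in Mtf1 (28.9%, against 63.7%). The 4 main sites of Bach1, all with AATAAA, lay between 2919 and 3478 nt past its stop codon, and Mtf1 had the widest spacing, with 4492 nt between its 2 main sites.

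**Figure D1:**
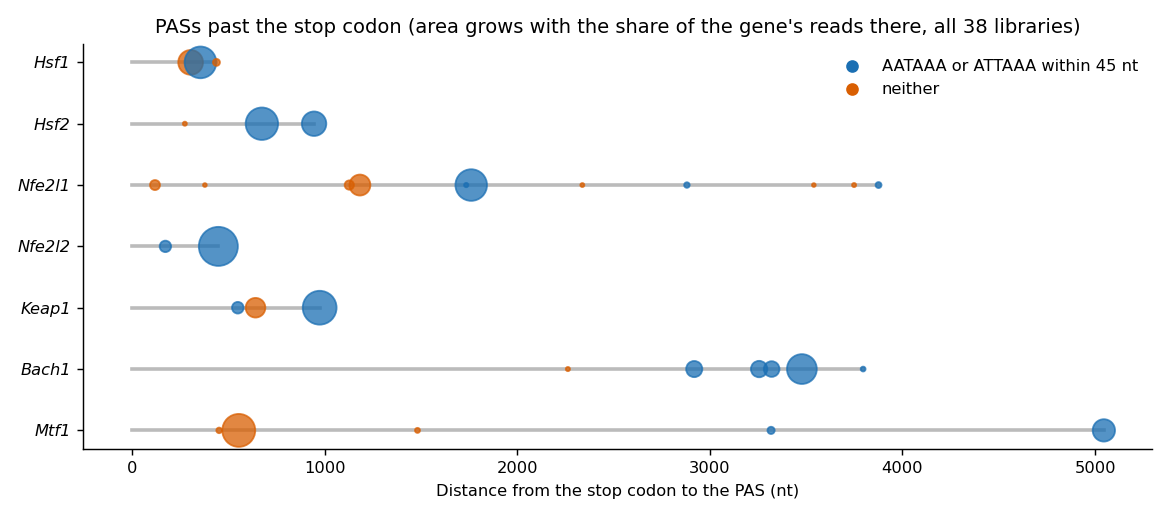
Positions of the PASs past the stop codon of each gene. The x axis is the distance from the stop codon in nt, and each circle is a PAS. Its area grows with its share of the gene's reads past the stop codon, over all 38 3′READS libraries. Colour tells whether AATAAA or ATTAAA lay within 45 nt upstream. Of the printed distal sites, those of Mtf1 (5046 nt) and Bach1 (3478 nt) lie farthest out, and those of Hsf1 (355 nt) and Nfe2l2 (448 nt) nearest. Minor sites also lie far out, such as that of Nfe2l1 at 3876 nt.

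RNA-seq of NIH3T3 total RNA gave the levels of all 7 genes on 1 scale, normalised RPM per kb of coding sequence. At RC4, in 1 library, 6 of them passed the test given below, against 48.9% of 11609 genes. Which genes passed depended on the scaling, as given below for Nfe2l2 and Hsf1. Averaged over NT, Nfe2l1 and Nfe2l2 were the highest and Keap1 the lowest. The order of levels changed at RC4: Nfe2l2 led with 184.4, Bach1 followed with 131.2, then Hsf2 (65.0), Mtf1 (61.9), Nfe2l1 (61.9), Hsf1 (18.7) and Keap1 (4.60). In NT cells the levels at 0 and 4 h were 112.3 and 98.8 for Nfe2l1, 91.1 and 81.2 for Nfe2l2, 25.3 and 25.3 for Bach1, 24.6 and 28.3 for Mtf1, 24.3 and 22.2 for Hsf2, 19.0 and 19.8 for Hsf1, and 11.6 and 10.2 for Keap1. The NT range of Bach1 lay inside that of Mtf1, with Hsf2 just below, and the NT ranges of the other genes did not overlap. Coding-sequence counts of Keap1 may hold reads of a lincRNA on the other strand, Gm16754, since the use of strand in counting is not given in the sources used here. In 3′READS of NT total RNA of this line, counted at PASs and not per kb, Keap1 had the highest mean of the 7. It was 150.8 RPM (96.6 to 186.5), against 71.5 for Nfe2l1 (32.8 to 114.0) and 37.2 for Nfe2l2 (9.88 to 85.1). The difference in rank between the assays was not tested.

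**Figure D2:**
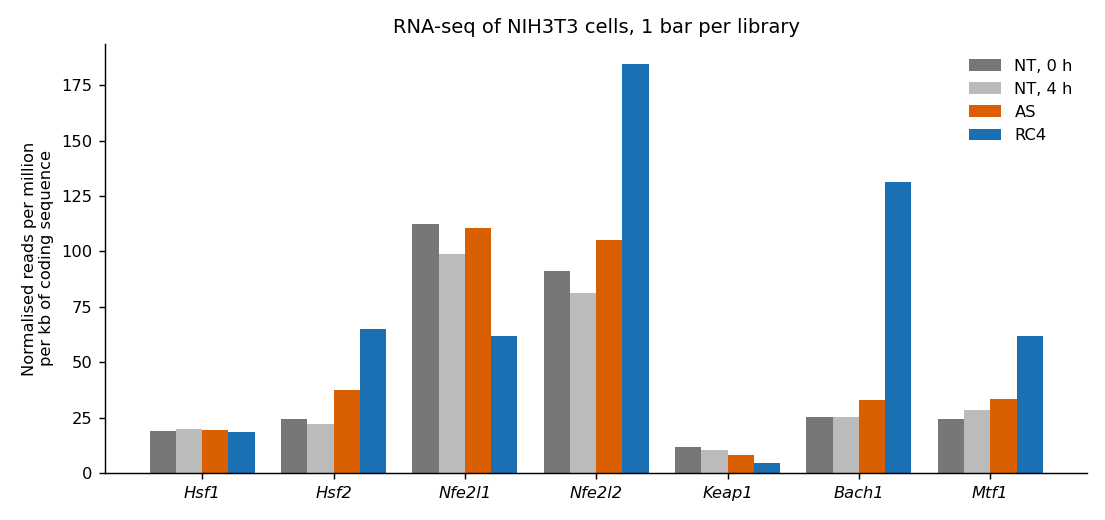
RNA-seq levels of the 7 genes in NIH3T3 cells, as normalised RPM per kb of coding sequence, with 1 bar for each of the 4 libraries and no error bars. The RC4 bar is above the others for Hsf2, Nfe2l2, Bach1 and Mtf1 and below them for Nfe2l1 and Keap1, while the Hsf1 bars lie between 18.7 and 19.8.

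At the end of the arsenite hour 1 of the 7 genes was called in RNA-seq, against a background of 3.81% of 11609 genes (edgeR's quasi-likelihood test, Benjamini-Hochberg adjusted p below 0.05). Hsf2 stood at 39.0 and 35.7 normalised RPM in NT and at 60.0 in AS. It rose 1.61-fold (log2 0.68 ± 0.17 SE, adjusted p = 0.0310). The call was lost with DESeq2 (adjusted p = 0.0837) and with library totals alone (0.0505). Bach1 went from 56.0 and 56.2 to 73.2 normalised RPM and Nfe2l2 from 163.1 and 145.5 to 188.3, and for both the AS library lay above both NT libraries without passing the test (adjusted p = 0.221 and 0.389). Mtf1 (68.0 against 49.7 and 57.3) and Keap1 (15.1 against 21.7 and 19.1) also lay outside their NT values, with adjusted p = 0.339 and 0.392. Hsf1 at 30.3 fell between its NT values of 29.9 and 31.1, and Nfe2l1 at 248.1 between 251.9 and 221.7.

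At RC4, 4 of the 7 genes were higher and 2 lower in RNA-seq, against a background of 48.9% of genes called. Bach1, the repressor, changed most. It reached 291.0 normalised RPM from 56.0 and 56.2 in NT, a 5.19-fold rise (log2 2.38 ± 0.15, adjusted p = 2.71e-09). All 3 other libraries lay at or below 73.2. Hsf2 reached 104.3 from 39.0 and 35.7, a 2.79-fold rise (log2 1.48 ± 0.17, adjusted p = 2.42e-06). Mtf1, the metal-responsive factor, reached 125.4 from 49.7 and 57.3, a 2.34-fold rise (log2 1.23 ± 0.16, adjusted p = 1.28e-05). For each of these genes the RC4 library was above every other.

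The KEAP1 and NRF2 mRNAs moved in opposite directions at RC4. Nfe2l2 stood at 330.3 normalised RPM against 163.1 and 145.5 in NT, a 2.14-fold rise (log2 1.10 ± 0.15, adjusted p = 1.38e-05). Keap1 stood at 8.62 against 21.7 and 19.1, a 2.37-fold fall (log2 −1.24 ± 0.25, adjusted p = 0.000597). Nfe2l1, the proteasome gene activator, fell 1.71-fold to 138.8 from 251.9 and 221.7 (log2 −0.77 ± 0.16, adjusted p = 0.000744). Hsf1 was at 29.4 against 29.9 and 31.1, a log2 difference of −0.05 ± 0.20 (adjusted p = 0.847). With library totals alone the Nfe2l2 change was 0.29 and no longer passed (adjusted p = 0.0911), and Hsf1 passed as a fall of log2 −0.86 (adjusted p = 0.00154). AS and RC4 were both compared with the same 2 NT libraries.

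Markers of other cell types moved with RC4 in these RNA-seq libraries. The 3 epithelial markers summed to 0, 0, 0.483 and 3.18 RPM of the library total in NT at 0 h, NT at 4 h, AS and RC4, the 3 endothelial markers to 0.736, 0.642, 0.220 and 2.86, and the 3 macrophage markers to 9.25, 7.99, 12.1 and 28.4. Krt8 (65 reads at RC4, 0 elsewhere) and Cdh5 (64 reads at RC4, 0 to 11 elsewhere) passed the read filter only through RC4. Their rise at RC4 is therefore no test result. The smallest RNA-seq count above 0 was 5, so a 0 in these markers is no measured absence. The macrophage marker Cd68 stood at 8.25 and 5.95 RPM of the library total in NT and 24.6 at RC4. Csf1r stood at 0.999 and 2.04 in NT and 3.81 at RC4. The defining markers Ptprc and Kdr were not listed. The 7 fibroblast markers summed to 18840 and 16610 in NT, 17260 in AS and 8647 in RC4, with 1 higher and 3 lower of 7 at RC4 (Pdgfrb by log2 −2.69, Col3a1 by −1.46 and Fn1 by −0.31). The sums are per library total, a scale on which the median gene fell at RC4, as given above. The log2 values are instead relative to the median gene, and there the 7 fibroblast markers had a median of −0.29 at RC4. The part of these marker shifts in the changes of the 7 genes was not tested.

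In total RNA read by 3′READS none of the 7 genes was called at AS, against a background of 0% of 10391 genes by edgeR. None had an unadjusted p under 0.05 and DESeq2 called none. Replicates 1 and 2 differed widely from the time-course replicate, and same-numbered NT and AS libraries lay close together. In replicates 1, 2 and 4 Nfe2l1 stood at 129.9, 85.7 and 35.2 normalised RPM in NT and at 152.6, 91.1 and 35.5 in AS, and Nfe2l2 at 19.0, 12.5 and 91.3 and at 21.7, 16.0 and 116.6. Hsf2 stood at 23.8, 6.25 and 50.3 and at 26.8, 12.5 and 59.7. In these 3 genes AS was above NT in 3 of 3 pairs.

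Hsf1 stood at 23.8, 30.4 and 30.9 in NT and at 18.8, 22.3 and 27.99 in AS, and Keap1 at 110.1, 236 and 181.9 and at 101.6, 222.1 and 179.1, so that both were lower in 3 of 3 pairs. Mtf1 stood at 19.8, 14.5 and 10.1 and at 21.7, 13.6 and 12.1. Bach1 stood at 51.6, 15.1 and 7.91 and at 49.4, 36.6 and 0. With the pairs as a block the edgeR log2 changes lay between −0.33 (Hsf1) and 0.45 (Hsf2). Without the time-course replicate, and with the replicate number as a block, again no member was called, among 31 genes that were (7 with the block and all replicates).

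The time course followed the same genes for a day after arsenite, in 1 library per time. Bach1 stood at 7.91 in NT, was listed at 0 at AS, and then stood at 32.6 at RC4, 7.64 at RC8, 4.69 at RC12 and 4.98 at RC24. PASs under 5 reads are not listed in these tables, so the 0 is no measured absence, and the NT value rests on 11 reads. Hsf2 stood at 50.3, 59.7, 88.2, 54.8, 49.2 and 35.8 over the same states. Both genes were highest at RC4, and from RC8 on Bach1 was below its NT value while Hsf2 was within or below the range of NT to AS. The fit with replicate number as a term sets the level of this set partly by the AS library, where Bach1 was listed at 0. Its Bach1 changes, log2 3.01 at RC4 and 0.92 at RC8, therefore lie above what these values give. They do not measure the size of the change.

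Nfe2l2 stood at 91.3, 116.6, 128.8, 82.2, 89.6 and 112.5 from NT to RC24, and Mtf1 at 10.1, 12.1, 20.3, 24.8, 9.96 and 10.95, highest at RC8. Keap1 stayed between 148.3 and 189.2 and Hsf1 between 21.7 and 30.9. Nfe2l1 was highest at RC4, at 44.1 against 35.2 in NT, and lowest at RC24, at 23.9. Its RC4 change in 3′READS (log2 0.38 ± 0.29, adjusted p = 0.499) thus had the opposite sign to its fall in RNA-seq, and the difference between the assays was not tested. None of the 7 genes was called at RC4 (background 5.9%), RC8 (0.0295%), RC12 (0%) or RC24 (0%) by edgeR or DESeq2. At an unadjusted p under 0.05, 2 genes passed at RC4 (Bach1, log2 3.01 ± 0.95, adjusted p = 0.104, and Hsf2, 0.90 ± 0.34, adjusted p = 0.154), 1 at RC8 (Mtf1, 1.20 ± 0.44, adjusted p = 0.292) and 0 at RC12 and RC24. Over all genes, 2440 of 10185 had an unadjusted p under 0.05 at RC4, 1369 at RC8, 898 at RC12 and 673 at RC24.

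**Figure D3:**
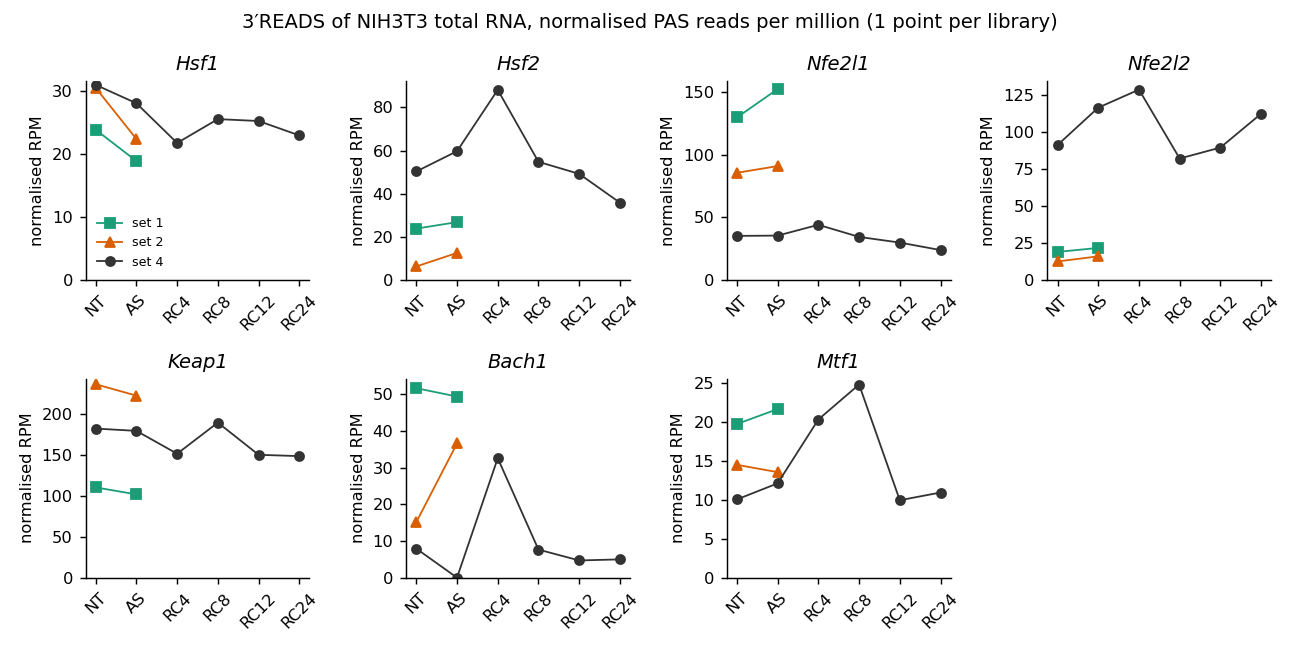
Normalised RPM of each gene in NIH3T3 total RNA by 3′READS, with 1 point per library and lines joining libraries of 1 replicate. Set 4 is the time course; its Bach1 and Hsf2 values peak at RC4 (32.6 and 88.2), and replicates 1 and 2 of Nfe2l1 (85.7 or more in NT) and Nfe2l2 (19.0 or less) sit far from it.

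The 4sU fraction asked which transcripts were being made in the last hour, and there Bach1 and Hsf2 were called at RC4, 2 of 7 genes against a background of 25.2%. Bach1 stood at 148.6 and 138.3 normalised RPM in NT, 226.0 in AS and 505.1 in RC4, and rose 3.53-fold by RC4 (log2 1.82 ± 0.20, adjusted p = 0.000337). Hsf2 stood at 33.9 and 40.9 in NT, 65.9 in AS and 85.9 in RC4, a 2.28-fold rise (log2 1.19 ± 0.26, adjusted p = 0.00920). In both genes every treated library lay above both NT libraries.

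In labelled RNA at AS none of the 7 genes was called (background 3.76%). Unadjusted p was under 0.05 for Bach1 (log2 0.66 ± 0.21, adjusted p = 0.127) and Hsf2 (0.81 ± 0.27, adjusted p = 0.144), and DESeq2 called none. Over all genes, 2056 of 10595 had an unadjusted p under 0.05 by edgeR. Labelled Nfe2l2 stood at 78.0 and 69.0 in NT, 98.4 in AS and 98.7 in RC4, both above NT but short of the threshold (adjusted p = 0.338 and 0.178). Labelled Nfe2l1 stood at 47.8 and 46.9 in NT, 35.1 in AS and 30.5 in RC4, both below NT (log2 −0.63 ± 0.26 at RC4, adjusted p = 0.106). It passed with library totals alone (log2 −0.93, adjusted p = 0.0294). Labelled Keap1 stood at 99.6 in NT at 0 h, 54.3 in NT at 4 h, 60.1 in AS and 56.2 in RC4, so that RC4 was close to the NT library of the same hour. It passed as lower when that library was left out (log2 −0.83, adjusted p = 0.0479). Labelled Mtf1 stood at 40.4 and 44.3 in NT, 34.0 in AS and 53.0 in RC4 (adjusted p = 0.617 and 0.432), and labelled Hsf1 at 19.6 and 28.1, 19.1 and 28.6 (adjusted p = 0.698 and 0.651). For both, AS was below and RC4 above the NT values.

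In Ft RNA, the older, unlabelled fraction, 3 of the 7 genes were higher at RC4, against a background of 24.3%. Bach1 stood at 23.5 and 30.2 in NT, 27.2 in AS and 139.9 in RC4, a 5.17-fold rise (log2 2.37 ± 0.23, adjusted p = 0.000154). Hsf2 stood at 8.34 and 10.5 in NT, 20.2 in AS and 30.9 in RC4, a 3.25-fold rise (log2 1.70 ± 0.33, adjusted p = 0.00556). Nfe2l2 stood at 35.7 and 37.9 in NT, 39.1 in AS and 79.9 in RC4, a 2.17-fold rise (log2 1.12 ± 0.23, adjusted p = 0.00799) that was lost with library totals alone (0.68, adjusted p = 0.0537). At AS none was called in Ft (background 0.651%), by edgeR or DESeq2, with an unadjusted p under 0.05 for 1 gene, Hsf2 (log2 1.09 ± 0.34). Over all genes, 1158 of 10595 had an unadjusted p under 0.05 there by edgeR. Ft Hsf1 at RC4 stood at 21.4 against 44.8 and 31.2 in NT (log2 −0.82 ± 0.38, adjusted p = 0.148) and passed with library totals alone (−1.26, adjusted p = 0.0331).

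The other 3 genes were called at neither AS nor RC4 in Ft. Mtf1 stood at 17.1 and 22.3 in NT, 13.99 in AS and 28.5 in RC4 (log2 0.53 ± 0.32 at RC4, adjusted p = 0.257), below NT at AS as in 4sU RNA, whereas in RNA-seq its AS value was above NT. Keap1 stood at 84.2 and 73.5, 76.6 and 74.2 (log2 −0.09 ± 0.34 at RC4). Nfe2l1 stood at 39.8 and 42.95, 29.2 and 33.8 (adjusted p = 0.473 at RC4), below NT in both treated libraries.

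**Figure D4:**
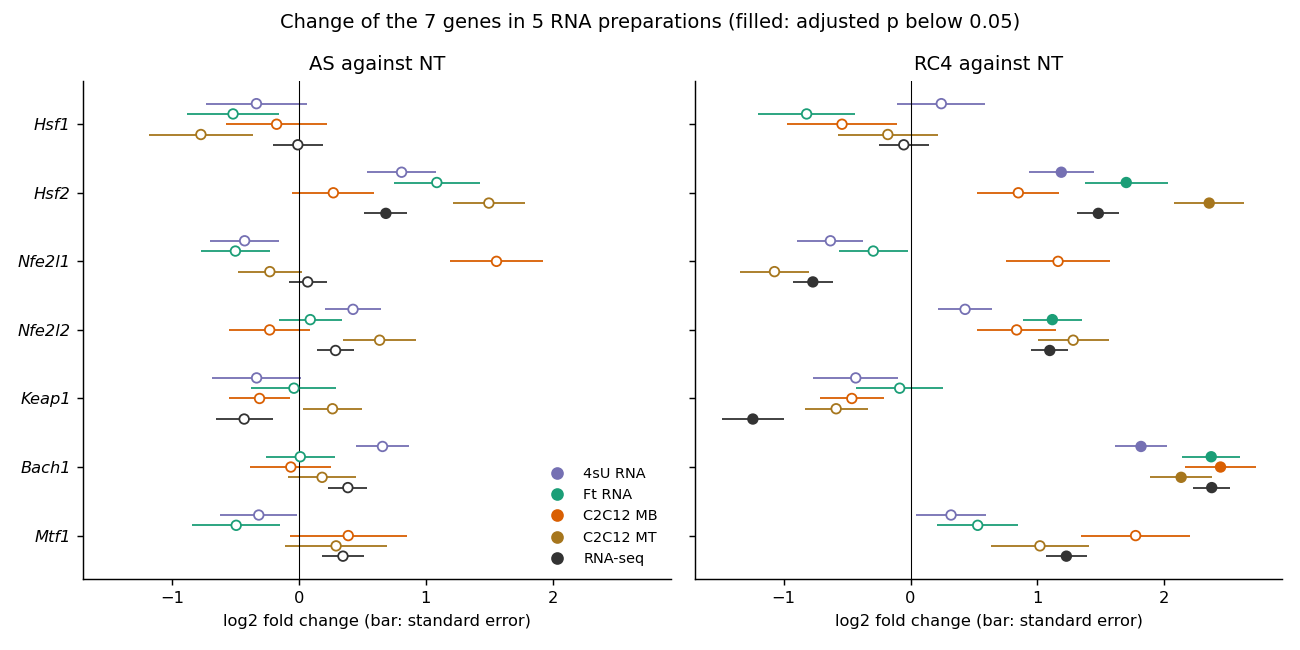
Log2 fold changes of the 7 genes at AS (left) and RC4 (right) against NT in 4sU, Ft and RNA-seq libraries of NIH3T3 and cytoplasmic libraries of C2C12. Bars are standard errors of the fit and filled points have an adjusted p below 0.05. The Bach1 points at RC4 lie between 1.82 and 2.44 in all 5 preparations, and at AS only Hsf2 in RNA-seq is filled.

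Comparing Ft with 4sU RNA in NT cells sets the older against the newly made RNA of each gene, and 4 of the 7 genes were lower in Ft, against a background of 45.1% called. Bach1 was at 23.5 and 30.2 in Ft against 148.6 and 138.3 in 4sU, a 5.30-fold difference (log2 −2.41 ± 0.20, adjusted p = 5.45e-05). Hsf2 was 3.96-fold lower (8.34 and 10.5 against 33.9 and 40.9, log2 −1.98 ± 0.26, adjusted p = 0.000342). Mtf1 was 2.15-fold lower (17.1 and 22.3 against 40.4 and 44.3, log2 −1.10 ± 0.25, adjusted p = 0.00535) and Nfe2l2 1.99-fold lower (35.7 and 37.9 against 78.0 and 69.0, log2 −0.99 ± 0.19, adjusted p = 0.00251). In none of these genes did the fractions overlap.

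Nfe2l1 (log2 −0.19 ± 0.21), Keap1 (0.05 ± 0.27) and Hsf1 (0.64 ± 0.29, adjusted p = 0.0956) were not called. Hsf1, with 44.8 and 31.2 in Ft against 19.6 and 28.1 in 4sU, was called as higher in Ft when fractions of 1 cell sample were paired (log2 0.63, adjusted p = 0.0178, background 55.1%) or when the second Ft library was left out (0.89, adjusted p = 0.0425). Longer, more uridine-rich RNAs take up more label. Uridines were counted over the annotated transcript of each gene that reaches farthest, whereas the paper counted them for each transcript with a defined PAS. For Mtf1 this transcript has a 3′UTR of 5457 nt. Yet 63.7% of Mtf1 reads over all 3′READS libraries ended 554 nt past the stop codon. Adjusted for this number of uridines, the Ft to 4sU ratio was −1.79 for Bach1, −1.87 for Hsf2, −1.08 for Nfe2l2 and −0.34 for Mtf1. The ratio did not change detectably with arsenite: for the difference at AS and at RC4 no member and no gene was called (background 0% in each) by edgeR, none of the 7 had an unadjusted p under 0.05, and DESeq2 called no member. With Ft and 4sU of 1 cell sample paired, 522 and 927 genes were called, none of them a member. For Bach1 the difference was −0.65 ± 0.35 at AS and 0.55 ± 0.32 at RC4.

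The 3′UTR letters of these genes differ. Hsf2 had 4 copies of ATTTA, the core of AU-rich elements, in 935 nt (4.28 per kb) and 38.5% U. Nfe2l2 had 2.23 copies per kb and 33.9% U, Bach1 1.44 and 31.0%, Mtf1 0.916 and 27.5%, and Nfe2l1 0.568 and 25.1%. Hsf1 (24.6% U) and Keap1 (23.1% U) held no ATTTA. These values are of the full annotated 3′UTR, 5457 nt in Mtf1. Of the reads of Hsf2 and of Mtf1, 63.7% in each ended at the proximal site, 674 and 554 nt past the stop codon. The values therefore do not describe the main isoforms of these 2 genes. Over 12560 annotated 3′UTRs of at least 100 nt the median was 1.30 copies per kb and 29.1% U, and 68.4% held at least 1 copy.

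**Figure D5:**
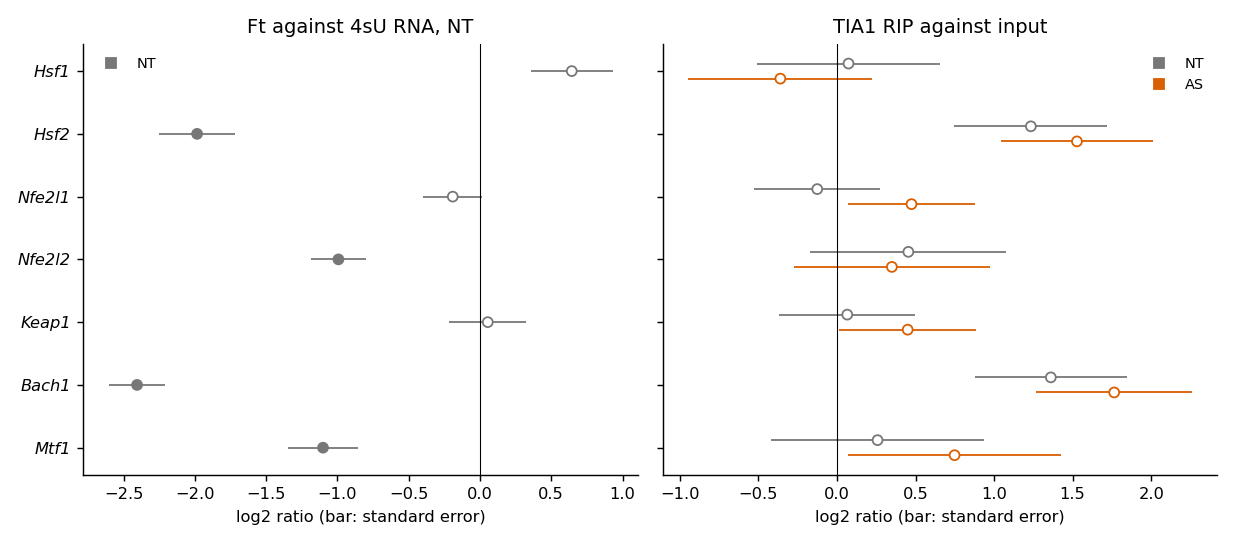
Log2 ratio of Ft to 4sU RNA in NT cells (left) and of TIA1-bound to input RNA in NT and AS cells (right). Bars are standard errors of the fit and filled points have an adjusted p below 0.05. Bach1 (−2.41) and Hsf2 (−1.98) lie lowest on the left and highest on the right, where no point passes.

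TIA1 is an RNA-binding protein that prefers U-rich sequence and gathers in stress granules, and its RNA was compared with cytoplasmic input. None of the 7 genes was called without pairing, by edgeR, in NT (background 3.56%) or AS cells (1.06%), while 2 had an unadjusted p under 0.05 in each. Over all genes, such a p was found for 2185 of 10062 in NT and 1916 in AS cells. Bach1 stood at 24.8 and 16.3 in NT input, 58.8 and 47.5 in NT TIA1, 13.0 and 12.0 in AS input and 38.5 and 46.8 in AS TIA1. Hsf2 stood at 18.1 and 18.8, 36.5 and 50.1, 26.1 and 31.4, and 58.4 and 106.9 in the same order. In both genes TIA1 and input libraries did not overlap in either state. In NT cells the other 5 genes lay between log2 −0.13 (Nfe2l1) and 0.45 (Nfe2l2), and in AS cells between −0.36 (Hsf1) and 0.75 (Mtf1), with adjusted p of 0.574 or more. The Nfe2l2 value counts reads of its first intron, described below. At its last exon alone, Nfe2l2 stood at 4.39 and 0 RPM of the library total in NT TIA1 RNA, against 6.04 and 4.75 in NT input. Mtf1 stood in AS cells at 21.4 and 23.5 in TIA1 RNA and at 10.3 and 16.5 in input, without overlap, and at 8.57 and 18.95 against 9.35 and 13.8 in NT.

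TIA1 and input RNA of 1 number came from 1 lysate. With that pairing Bach1 was higher in TIA1 RNA of NT (log2 1.39, adjusted p = 0.0498) and AS cells (1.75, adjusted p = 0.0225), and Hsf2 in AS cells (1.46, adjusted p = 0.0284), against backgrounds of 18.4% and 16.3%. DESeq2 without pairing called both in AS cells (adjusted p = 0.0158 for Bach1 and 0.0411 for Hsf2, background 11.3%) and neither in NT. The ratio did not differ detectably between AS and NT: none of the 7 genes was called by edgeR or DESeq2, none had an unadjusted p under 0.05, and the background was 0%. In cytoplasmic input alone AS against NT called no member (background 0.00994%, 0 at an unadjusted p under 0.05, and 0 with DESeq2).

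In C2C12 cytoplasmic RNA Bach1 rose at RC4 in both cell states, and Hsf2 in MT. Bach1 stood in MB at 17.1 and 20.6 in NT, 18.0 in AS and 102.9 in RC4, a 5.44-fold rise (log2 2.44 ± 0.28, adjusted p = 0.0238), 1 of 7 genes called against a background of 1.98%. In MT it stood at 40.6 and 35.8 in NT, 43.3 in AS and 167.8 in RC4, a 4.39-fold rise (log2 2.13 ± 0.25, adjusted p = 0.0205). Hsf2 in MT stood at 15.9 and 16.5 in NT, 45.9 in AS and 83.3 in RC4, a 5.12-fold rise at RC4 (log2 2.36 ± 0.27, adjusted p = 0.0205), so that 2 of 7 genes were called in MT against 1.74%. In MB Hsf2 stood at 15.8 and 15.5, 18.8 and 28.2 (log2 0.85 ± 0.32, adjusted p = 0.190).

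These calls rest on few libraries. Leaving out either MT NT library raised the adjusted p of Bach1 to 0.164 or 0.115 in MB and to 0.364 or 0.280 in MT, and that of Hsf2 in MT to 0.364 or 0.241. The Hsf2 call was also lost with DESeq2 (adjusted p = 0.128). Without either MB NT library Nfe2l2 (log2 1.28, adjusted p = 0.0177 and 0.0126) and Nfe2l1 (−1.08 and −1.07, adjusted p = 0.0287 and 0.0232) passed at RC4 and Hsf2 at AS (1.50 and 1.49, adjusted p = 0.0337 and 0.0236) in MT, and without the first MB NT library Mtf1 passed at RC4 in MB (2.05, adjusted p = 0.0271).

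Nfe2l1 showed the lowest values of the 7 genes in NT cells of MB, 5.25 and 5.79 from 8 and 9 reads, with 16.4 in AS and 12.5 in RC4. In MT it stood at 84.6 and 83.4 in NT, 71.6 in AS and 39.9 in RC4. Both treated libraries were thus above NT in MB and below NT in MT, and neither state passed (RC4 adjusted p = 0.163 and 0.132). The test of that difference between MT and MB gave log2 −1.79 ± 0.45 at AS (edgeR adjusted p = 0.776) and −2.24 ± 0.49 at RC4 (adjusted p = 0.498). For Hsf2 it gave 1.23 ± 0.44 and 1.51 ± 0.43 (adjusted p = 0.776 and 0.498). No gene was called for either difference (0% and 0%), 2 of the 7 had an unadjusted p under 0.05 in each, and DESeq2 called no member. Over all genes, 615 of 9776 had an unadjusted p under 0.05 by edgeR for the difference at AS and 925 at RC4.

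At AS none of the 7 genes was called in MB (background 0.113%) or MT (0.0614%), by edgeR or DESeq2, with 1 gene at an unadjusted p under 0.05 in each, Nfe2l1 in MB (log2 1.56 ± 0.36) and Hsf2 in MT (1.50 ± 0.28). Over all genes, such a p was found by edgeR for 994 of 9776 in MB and 990 in MT. Nfe2l2 at RC4 stood at 41.3 against 24.3 and 21.9 in MB and at 58.1 against 22.4 and 25.2 in MT (adjusted p = 0.178 and 0.0995). Mtf1 stood at 26.9 against 9.19 and 6.44 in MB and at 25.6 against 12.2 and 13.0 in MT (adjusted p = 0.0907 and 0.268). Keap1 stood at 76.7 against 112.3 and 99.1 in MB and at 62.9 against 89.2 and 99.6 in MT (adjusted p = 0.355 and 0.318). In all 3 genes and both cell states the RC4 library lay outside the NT values. Hsf1 did so in MB, at 21.6 against 23.6 and 39.3, and in MT, at 27.8 against 28.5 and 34.2 (adjusted p = 0.520 and 0.894).

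Without arsenite MT and MB differed in 6 of the 7 genes in total RNA, where 59.6% of 10808 genes were called. In these bulk samples, fewer cells of a type and less RNA per cell cannot be told apart, and the summed myotube markers differed between MT and MB as given above. The 3 myoblast markers Myod1, Myf5 and Des were not higher in MB. Over all 3′READS libraries they summed to 67.2 to 162.5 RPM in MB and 158.0 to 682.7 in MT. In total RNA 2 of the 3 were called higher in MT and 0 lower (median log2 2.15). Nfe2l1 stood at 135.6 and 134.8 in MT and at 25.5 and 27.95 in MB, 5.04-fold higher in MT (log2 2.33 ± 0.14, adjusted p = 1.24e-09). Bach1 was 2.35-fold higher (63.2 and 45.5 against 24.2 and 22.1, adjusted p = 4.28e-05) and Hsf2 2.12-fold higher (30.4 and 28 against 10.96 and 16.2, adjusted p = 0.000538). Keap1 was 1.51-fold lower (122.8 and 107.0 against 165.6 and 181.3, log2 −0.60 ± 0.12, adjusted p = 0.000400). MT and MB did not overlap in any of these genes.

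Mtf1 was 1.75-fold higher in MT (15.2 and 13.6 against 9.67 and 6.92, adjusted p = 0.0239) and Nfe2l2 1.32-fold higher (63.9 and 71.4 against 53.5 and 49.5, adjusted p = 0.0226). Both calls were lost with DESeq2 (adjusted p = 0.236 and 0.184) and with library totals alone (0.0537 and 0.116). Without MB replicate 3 both were lost as well (adjusted p = 0.184 and 0.0932), as they were without MT replicate 3 (0.0591 and 0.170), and Mtf1 was lost without MT replicate 2 (0.111). Hsf1, at 45.9 and 37.9 against 44.8 and 39.5, did not pass (log2 −0.01 ± 0.16). In cytoplasmic RNA, where 22.9% of genes were called, Nfe2l1 was 15.1-fold higher in MT (log2 3.91 ± 0.29, adjusted p = 0.000935) and Bach1 2.02-fold (1.02 ± 0.25, adjusted p = 0.0355), and the other 5 genes were not called. The Bach1 call was lost with DESeq2 (adjusted p = 0.240) and without the first MB NT library or either MT NT library (0.0515, 0.252 and 0.169).

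Use of the 2 main PASs was compared as log2 of distal over proximal reads, the PASs printed above, or for Bach1 the printed site against another of its 4 sites, 222 nt upstream where tested. Between 3 and 6 of the 7 genes had more than 5 reads at each PAS in every library of an experiment, and 1 call was made. In MT total RNA 94.2% and 96.7% of Nfe2l2 reads ended at the distal PAS, against 83.9% and 85.4% in MB, a log2 ratio higher by 1.93 ± 0.35 (adjusted p = 0.0233, 1 of 6 genes against a background of 7.47% of 3211). The proximal site held 8 to 26 reads in these libraries. The call was lost without MT replicate 3 (adjusted p = 0.0530), MB replicate 2 (0.139) or MB replicate 3 (0.0867).

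The distal share of Nfe2l1 in TIA1 RNA was 88.6% and 88.9% in NT and 88.5% and 86.3% in AS, against 64.7% and 56.9% and 64.8% and 64.3% in input. The groups did not overlap, yet with a log2 ratio higher by 2.32 in NT and 1.93 in AS the test did not pass (adjusted p = 0.154 and 0.244, background 0% in each). In Ft RNA of NT cells the Nfe2l1 share was 56.3% and 65.1%, against 73.1% and 86.2% in 4sU. That difference passed only when the fractions were paired (log2 −1.40, adjusted p = 0.0345, background 13.8%, and adjusted p = 0.0977, background 9.13%, without pairing).

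No other isoform ratio of the 7 genes was called. At AS the background was 0% in total, 4sU, Ft and input RNA, MB and MT. At RC4 it was 0% in total RNA, 0% in 4sU, 1.25% in Ft, 2.69% in MB and 0.122% in MT, and it was 0% at RC8, RC12 and RC24. It was 0.612% for MT against MB in cytoplasmic RNA and 0% for each difference of a change between fractions, RNA types or cell states. Hsf2 at RC4 had the lower distal share in Ft (18.5% against 45.5% and 39.4% in NT, adjusted p = 0.106) and in MB (18.6% against 33.3% and 45.8%, adjusted p = 0.149), and the MB change passed without the first MB NT library (log2 −1.83, adjusted p = 0.0381). By Fisher's exact test within each NT and AS pair of total RNA, Hsf1 of replicate 1 was the only case, among those with over 5 reads of each PAS in both libraries, to pass (81.4% distal in NT and 62.1% in AS, unadjusted p = 0.0192). Its shares were 52.3% and 43.1% in replicate 2 and 41.9% and 53.3% in replicate 4.

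Nfe2l2 also had reads inside its first intron, and their share set the replicates of NIH3T3 total RNA apart. The 2 intronic PASs are shown because they held 14.3% and 8.37% of the gene's reads over all libraries.
Nfe2l2 intron 1, first site, chr2:75532545-75532574, minus strand: tttcttttacctcggcctctcaaaaacaaa
Nfe2l2 intron 1, second site, chr2:75529260-75529289, minus strand: aattggATTAAAtacgttgttcaaATTAAA
Capitals mark ATTAAA, of which the second site has 2 copies, beginning 24 and 6 nt before the PAS, and the first site has none in the printed window. The 20 genomic bases after the first site held 12 A, and those after the second 1. Upstream reads, nearly all at these sites, were 57.5% to 74.2% of Nfe2l2 reads in replicates 1 and 2 of NT and AS total RNA and 0% to 3.68% in the 6 time-course libraries. In 4sU RNA they were 17.8% and 14.5% in NT, 25.4% in AS and 27.4% in RC4. They were 14.3% to 26.3% in Ft, 0% to 28.1% in C2C12, 32.4% to 66.7% in input and 50.0% to 100% in TIA1 RNA. At the last exon alone, labelled Nfe2l2 stood at 62.45 and 62.6 RPM of the library total in NT, 63.6 in AS and 60.5 in RC4. On that scale all its labelled reads gave 76.0 and 73.2, 85.2 and 83.3. The median gene of labelled RNA fell on that scale at AS and RC4, as given above. These values therefore do not show whether last-exon reads rose relative to the median gene. The labelled Nfe2l2 values given earlier thus include intronic reads. Counted at the last exon alone, Nfe2l2 in NT stood at 7.08, 2.55 and 85.1 RPM of the library total in replicates 1, 2 and 4, and the time-course value was again the highest. All calls of the 7 genes in the experiments so recounted were kept when only PASs of the last exon and downstream were counted.

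The genes that these factors control and the proteins that control them were followed in lists, given by their counts and medians. In RNA-seq at AS, where 3.12% of all genes were higher and 0.689% lower, 12 of 14 HSF1 targets were higher (median log2 1.19, all genes 0.00), led by the HSP70 genes Hspa1a (5.76) and Hspa1b (5.72), near-identical copies whose split is uncertain, and the co-chaperone Dnajb1 (4.93). Of 14 NRF2 targets 3 were higher, Hmox1 (3.42), Osgin1 (1.29) and Srxn1 (0.98), and the cystine transporter Slc7a11 was lower (−1.91), with a median of 0.01. Of 3 MTF1 targets the zinc exporter Slc30a1 (2.51) and the metallothionein Mt1 (0.71) were higher, and 0 of 31 NRF1 targets, the proteasome subunits, were called in either direction. Of the small MAF and CNC genes 2 of 4 were higher, Mafk (1.42) and Maff (1.54).

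At RC4, where 26.4% of all genes were higher and 22.6% lower, 14 of 14 HSF1 targets were higher (median 4.40), Hspa1a by 9.59, Hspa1b by 9.54 and Hsph1 by 6.21, while Hsf1 mRNA itself was not called. NRF2 targets were higher for 12 of 14 (median 2.06), with Hmox1, the haem-degrading enzyme that BACH1 represses, at 6.77, Srxn1 at 5.27 and the thioredoxin reductase Txnrd1 at 4.13. Of the MTF1 targets 3 of 3 were higher (Slc30a1 4.00, Mt1 1.12, Mt2 0.65), as were 4 of 4 small MAF and CNC genes (Mafk 3.42, Maff 3.88, Mafg 1.77). NRF1 targets were higher for 24 of 31 (median 0.69, Psmc2 1.46, Psmd1 1.40, Psmd8 1.49). Scaled by the library total alone, 5 NRF1 targets were higher and 8 lower, with a median of −0.12 against −0.80 for all genes, and the HSF1 list kept 14 of 14 higher, the NRF2 list had 11 higher and 1 lower, the MAF list 3 and the MTF1 list 1.

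Of 14 genes of NRF2 and NRF1 turnover, 6 were higher and 4 lower at RC4 (median 0.23), shares not far from those of all genes. They included Sqstm1, whose protein p62 binds KEAP1 (3.96), the kinase Gsk3b (1.04), the protease Ddi2 that releases NRF1 (1.02), the NRF2 ligase subunit Btrc (−1.54), the BACH1 ligase subunit Fbxo22 (−1.40) and the endoplasmic reticulum ligase Syvn1 (−1.12). With library totals 1 was higher and 7 lower. At AS 2 were higher, Sqstm1 (1.34) and the glycosyltransferase Ogt (0.70). Of the HSF family list neither Hsf4 nor Hsbp1, the HSF1-binding protein, was called at AS or RC4.

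In 3′READS at RC4 the share of all genes that were higher was 13.6% in 4sU RNA, 14.5% in Ft, 1.38% in MB and 1.38% in MT. HSF1 targets were higher for 13 of 13 in 4sU RNA, 13 of 13 in Ft, 10 of 13 in MB and 11 of 13 in MT, and NRF2 targets for 12 of 14, 12 of 14, 5 of 13 and 5 of 13. NRF1 targets were higher for 12 of 30 in 4sU, 11 of 30 in Ft and 0 of 30 in MB and MT. MT against MB total RNA, where 31.5% of all genes were higher and 28.1% lower, had 11 of 13 NRF2 targets lower, among them Gclm (−2.65), Srxn1 (−2.66) and Gsr (−2.62), with Slc7a11 (3.49) and Hmox1 (1.09) higher, and 8 of 12 HSF1 targets lower, with Hspb8 (1.82) and Cryab (1.87) higher. Metallothioneins Mt1 (−1.58) and Mt2 (−2.14) were lower. NRF1 targets had 8 higher and 6 lower of 30, no larger shares than over all genes, which turned to 5 and 11 with library totals.

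Promoters, 250 bases before to 50 after the start, were found for 6 of the 7 genes in RefSeq (GRCm38.p6). They are shown where the binding letters of 1 of these factors occurred, searched on both strands.
Nfe2l2, antioxidant response element TGACNNNGC, chr2:75704884-75704913, minus strand: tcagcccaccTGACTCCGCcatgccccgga
Hsf2, metal response element TGCACNC or TGCGCNC, chr10:57486258-57486287, plus strand: gcgcgggagtaGAGCGCAggggtggagcgc
Bach1, the same, chr16:87698946-87698975, plus strand: ggagaggaacgGAGCGCAggggaggagacg
Nfe2l1, the same, chr11:96829950-96829979, minus strand: ggcgggtttccGAGTGCAgtggaaggaggg
Nfe2l1, the same, chr11:96830130-96830159, minus strand: gggggcgggccTGCACACtcattggacttc
Capitals mark the match, which is on the reverse strand where it reads GAGCGCA or GAGTGCA. The antioxidant letters occurred in 1 of 6 genes, against 14.0% of 27025 genes, and the metal letters in 3 of 6 against 28.2%. The heat shock element, GAANNTTC or TTCNNGAA, occurred in 0 of 6 against 16.97%. No overlap between motifs was found in these windows. A match shows letters only.

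The genes most like each member over the 38 3′READS libraries, after centring within each experiment, were found among 8018 genes and are given with Pearson's r of log2(RPM + 1) as a description. They were Prr14 (0.758) and Fastk (0.751) for Hsf1, Akirin2 (0.866) and Plk2 (0.862) for Hsf2, Col6a2 (0.896) and Adck3 (0.885) for Nfe2l1, and Mapkap1 (0.926) and Bag2 (0.922) for Nfe2l2. They were Rhog (0.867) and Cdc42ep5 (0.866) for Keap1, Fbxo11 (0.885) and Arhgap12 (0.880) for Bach1, and Cltc (0.755) and Klf5 (0.714) for Mtf1. The libraries share replicate sets and depth, and the points are not independent.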

How the data were processed

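Per the labels and the study's methods, the authors trimmed 3′READS reads with cutadapt, aligned them to mm9 with Bowtie2, and deposited read counts per PAS cluster, with clusters under 5 reads not listed. They deposited RNA-seq counts per gene over coding sequences after alignment with STAR, from a strand-specific ligation protocol. Whether counting used strand is not given in the sources used here. Versions of cutadapt and Bowtie2 are not given in the sources used here. PASs within 24 nt were joined across libraries and given to mm9 genes. Counts were fitted in R 4.3.3 with edgeR 4.0.16 (median-ratio scaling, quasi-likelihood test, Benjamini-Hochberg adjustment, threshold 0.05) over all genes with a mean of more than 5 reads per library. Each standard error is the log2 fold change divided by the square root of the test's F. Isoform ratios were fitted with limma 3.58.1 on log2 of the 2 counts plus 0.5. Alternatives were DESeq2 1.42.0, other scalings and filters, a pseudocount of 1, replicate blocks and leaving out each replicate. Counting PASs of the last exon alone, and leaving out the time-course set, were chosen after seeing the data. The scripts were tested on simulated data.

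The rule for named genes took the 7 members in every comparison at the gene level, and uncalled isoform ratios are given by counts. Of each list, up to 3 genes per direction with the smallest adjusted p were named, and for each member the 2 genes with the highest r. The members and lists were chosen with earlier results of these data known. Same-numbered libraries deviated together: r was 0.753 to 0.819 for NT and AS total RNA, 0.177 to 0.411 for TIA1 and input, 0.143 for the NT fractions of 1 cell sample, and 0.0342 for MT and MB, whose numbers do not pair them. The recovery fit held replicate number as a term. Counts cover the reads in each library, whose number limits the precision, and PCR copies among the reads are not independent molecules.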

Additional observations from a re-analysis of the deposited data

Results flagged for a closer look

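In 5 cases every treated library lay above NT in 1 setting and below NT in another, and the edgeR test of the difference did not pass after adjustment over all genes. The AS effect on Nfe2l1 was lower in MT than in MB by log2 −1.79 (adjusted p = 0.776), and the RC4 effect by −2.24 (adjusted p = 0.498). The MB side rests on 5.25 and 5.79 normalised RPM in NT, from 8 and 9 reads. The AS effect was higher in MT than in MB by 0.867 for Nfe2l2 (adjusted p = 0.808) and by 0.575 for Keap1 (adjusted p = 0.828). Hsf1 at RC4 lay above both NT libraries in 4sU RNA (28.6 against 19.6 and 28.1) and below both in Ft RNA (21.4 against 44.8 and 31.2), a log2 difference of −1.06 between the effects (adjusted p = 0.439). In each case 1 library per treated state decides the direction.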

How the results depend on the processing

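A call is 1 gene passing in 1 comparison. In NIH3T3 total RNA during recovery the 0 calls reported became 0 to 1 when 1 library was left out. The 1 is Bach1 at RC4 without NT replicate 4, where the level of that set rests on an AS library in which Bach1 is listed at 0, so it says nothing of a change. TIA1 RNA had 0 calls, 2 with DESeq2 and 3 with the replicate block that pairs TIA1 and input of 1 lysate. C2C12 cytoplasmic RNA had 5 calls, 3 with DESeq2 and 1 to 8 when 1 library was left out. Among isoform ratios, the replicate block that pairs Ft and 4sU of 1 cell sample gave 1 call where 0 were reported. Leaving out 1 library gave 0 to 1 in C2C12 cytoplasmic RNA (0 reported) and 0 to 1 for MT against MB in total RNA (1 reported), where a filter of more than 20 reads of each PAS gave 0. Every other count of calls stayed within 1.5 times of the reported one, and no called value turned its direction under any alternative run. The 9 calls of the 4sU and Ft fractions were 10 with library totals, and the 4 in the comparisons between fractions were 5 with pairing. The 6 calls of MT against MB were 4 with DESeq2 or library totals and 6 with a replicate block, although these replicate numbers do not pair the libraries. The 7 calls in RNA-seq were 6 with DESeq2 or library totals. TMM and dropping the filter on low counts changed no call of the 7 genes, and requiring more than 5 reads in every library added 1, Mtf1 at RC4 in MB (adjusted p = 0.0418). The uridine adjustment, over the farthest-reaching annotated transcripts, moved the Ft to 4sU ratio of Bach1 to −1.79 and of Mtf1 to −0.34. The replicate block gave 0 calls of the 7 genes for AS in total RNA and in input, and the recovery fit without the block gave 0.

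Counts over all genes moved more. TIA1 against input gave 358 and 107 genes in NT and AS cells, 1310 and 1135 with DESeq2, 1183 and 926 with no filter and 1847 and 1645 with the replicate block. RC4 in total RNA gave 601, 1044 with DESeq2, 1284 with more than 5 reads in every library and 0 without the replicate block. RC8 gave 3, 294 and 258 with the first 2 of these settings and 25 with library totals. RC4 in C2C12 gave 194 genes in MB and 170 in MT, 501 and 344 with more than 5 reads in every library, and AS 11 and 6, against 57 and 60 with DESeq2. AS in RNA-seq gave 442 and 278 with DESeq2, in 4sU RNA 398 and 696 with more than 5 reads in every library, and in Ft RNA 69, 138 with DESeq2 and 171 with that filter. MT against MB in cytoplasmic RNA gave 2237 and 1320 with DESeq2. The causes were not tested. An RNA-seq NT library could not be left out with a test, since no spread then remains. Depth limits the genes with few reads in a library, such as 11 Bach1 reads in the time-course NT library and 8 and 9 Nfe2l1 reads in the MB NT libraries.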
